A study of Mus musculus with 6 samples.

Results

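The genes described here are the chromosomal neighbours of Got1: protein-coding genes on mouse chromosome 19 whose deposited start lies between 41000000 and 46000000 on GRCm38. The window held 79 protein-coding genes, of which Got1 itself and 7 genes (Scd1, Scd2, Twnk, Pgam1, Ndufb8, Mrpl43 and Slc25a28) were left out by the rule. That left 71 neighbours of 720 protein-coding genes on the chromosome and of 54532 genes in all. The rule used position and this list of names to leave out, and 3 of the 7 genes left out besides Got1 were themselves called higher (Ndufb8, Pgam1 and Mrpl43). The RNA came from T helper 17 (Th17) cells made in culture, with 3 libraries from C57BL/6 wild-type (WT) mice and 3 from animals with a T cell specific loss of GOT1 (GOT1-/-). Naive CD4+ T cells, sorted as CD25- CD62L+ CD44-, came from male or female mice aged 6 to 10 weeks. All groups received anti-CD3 at 5 ug/ml, anti-CD28 at 2 ug/ml, and a Th17 mixture. The mixture had 2.5 ng/ml TGF-beta and 10 ng/ml of each of the cytokines IL-1beta, IL-6 and IL-23, plus blocking antibodies (2 ug/ml of each) against IL-4 and IFN-gamma. Medium was renewed on day 2 and cells were lysed for RNA on day 4. The Cre driver, the engineered allele and the breeding of the mice were not stated in the labels. Nor was it stated whether replicates were separate animals, so a p-value covers the spread between these libraries, which may be technical.

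An engineered allele is inherited together with the DNA around it, so in mice bred from another background the genes beside the target can keep that background's variants. Removing part of a gene, or leaving marker sequence in it, can also alter the transcription of genes nearby, through shared regulatory DNA or transcripts that run on past their normal end. The neighbours of a targeted gene are for this reason a usual place to look for local effects of the engineering. GOT1 is a cytosolic enzyme that interconverts aspartate and glutamate, and its neighbours have no single pathway in common.

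Got1 (ENSMUSG00000025190, chromosome 19, 43499752 to 43524605, minus strand) was counted 3284, 3524 and 2873 times in the WT libraries against 332, 339 and 300 times in the GOT1-/- libraries, in replicate order. The groups were far apart, and 9.62% of the WT level was left. Total counts per library were 16463752 to 22541410, and 3 counts, the upper limit set on a gene with no reads (counting error only), were 0.133 to 0.181 CPM, the counts of a gene scaled to a common library size. The 6 T cell markers, as a check of the labelled cells, summed to 2670 to 2740 CPM in WT and 2410 to 2620 CPM in GOT1-/- libraries, and the 6 Th17 markers to 1370 to 1490 and 1260 to 1350 CPM. Of the T cell markers 1 was called higher and 2 lower, and of the Th17 markers 1 higher and 3 lower, beside 43.8% called over all genes. Macrophage, monocyte and neutrophil markers were higher in GOT1-/- libraries, at 4.65 to 7.13 CPM in WT and 16.4 to 18.2 CPM in GOT1-/-. Of these 6 markers 5 were tested and 3 called higher. Mast cell and basophil markers were also higher (2.58 to 3.24 and 9.1 to 9.9 CPM), with 3 of 4 tested and all 3 called higher. B cell markers summed to 0.846 to 1.42 and 0.818 to 1.83 CPM, dendritic markers to 2.27 to 2.96 and 3.48 to 4.5 CPM, and CD8, NK and gamma-delta markers to 70.3 to 75.9 and 58.8 to 62.6 CPM. No B cell marker was called, 1 dendritic marker was called higher, and of the CD8, NK and gamma-delta markers 2 were called higher and 1 lower. The part of these cells in the values below was not tested. In bulk RNA, fewer cells of a type and less RNA per cell cannot be told apart.

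Around Got1 no tested neighbour had an estimated change as large as 2-fold. Of the 71 neighbours, 44 had enough reads to be tested, and in GOT1-/- cells 9 of them were higher, 10 were lower and 25 were not called (edgeR's quasi-likelihood test, Benjamini-Hochberg adjusted p under 0.05 over 12873 genes). Over all genes tested 43.8% were called, 22.9% higher and 21.0% lower. The corresponding shares of the tested neighbours were 43.2%, 20.5% and 22.7%, near that background. In the rest of chromosome 19, 182 of 365 tested genes were called, or 49.9%, with 104 higher (28.5%) and 78 lower (21.4%). Of all tested protein-coding genes, 46.3% were called, 24.4% higher and 21.9% lower. Changes of at least 2-fold were called for 16 genes of the rest of the chromosome, or 4.38%, against 4.23% of all genes, 3.82% of protein-coding genes and none of the neighbours. The largest increase among the neighbours was 1.69-fold (Gm17018) and the largest decrease 1.63-fold (Lcor).

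The neighbours were divided between higher and lower. Their median log2 fold change was 0.02, with an interquartile range of -0.24 to 0.19, beside 0.06 in the rest of the chromosome and 0.01 over all genes tested. The median size of change regardless of direction was 0.22 on the log2 scale for the neighbours, 0.27 for the rest of the chromosome and 0.27 for all genes. For 39 of the 44 tested neighbours the log2 fold change plus or minus 2 SE lay within 2-fold in both directions. The 3 libraries of one genotype lay wholly on one side of the other 3 for 20 tested neighbours, or 45.5%, beside 53.4% of all genes, 55.8% of protein-coding genes and 57.8% of the rest of the chromosome. These are descriptions, and no test of the neighbours against the rest of the chromosome was made. All 44 passed the filter on low counts without depending on one genotype alone, 42 of them by passing the cutoff in all 6 libraries.

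**Figure D1:**
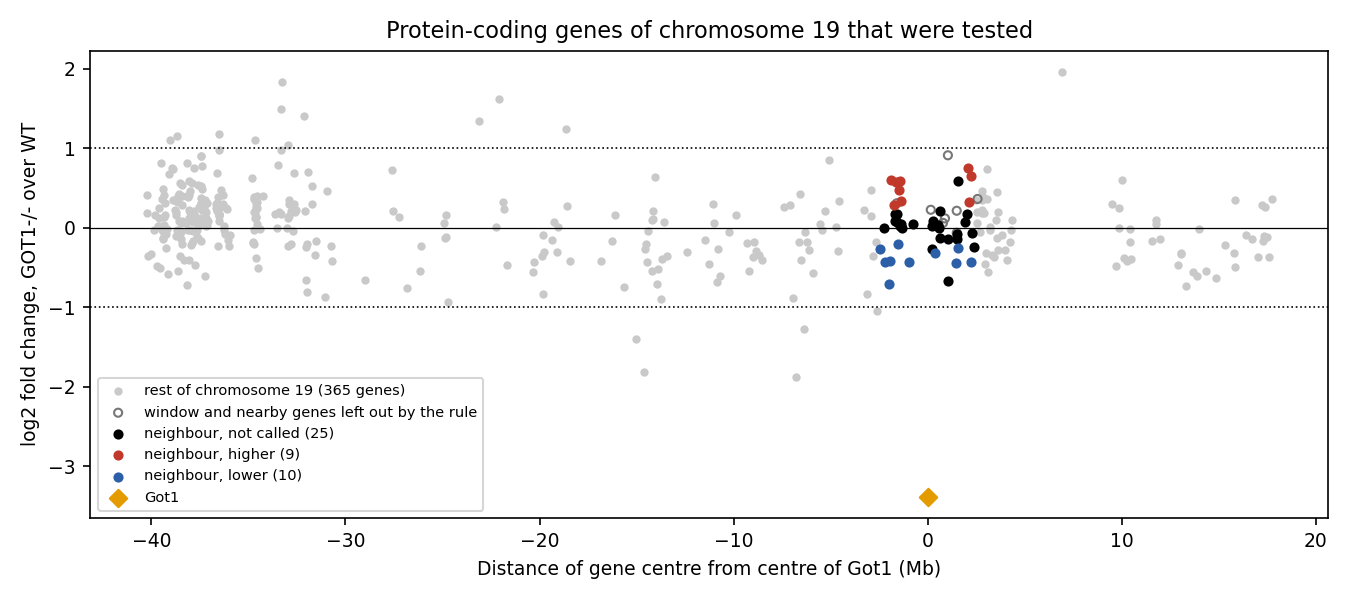
Log2 fold change (GOT1-/- over WT) of each tested protein-coding gene of chromosome 19, against the distance of its centre from the centre of Got1 in Mb. The neighbours in black, red and blue lie between the dotted lines of 2-fold change, Got1 lies at -3.38, and the grey points are the 365 tested genes of the rest of the chromosome.

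The chromosome was also divided into stretches of 1 Mb. Of 28 stretches with at least 5 tested genes, 5 were in the window. Their median log2 fold changes, Got1 aside and with the genes left out put back, ranged from 0.00 to 0.09, and those of the 23 outside from -0.39 to 0.27. The share of genes called was 18.2 to 66.7% in the window, with a median of 42.9%, and 20.0 to 80.0% outside it, with a median of 54.5%. The median size of change regardless of direction was 0.054 to 0.289 on the log2 scale in the window and 0.129 to 0.411 outside it. The lowest value of the window was thus below the range outside it in both measures, but in different stretches, and this was not tested. The stretch from 44 to 45 Mb had 18.2% called and a median size of change of 0.133. The stretch from 42 to 43 Mb had 42.9% called and a median size of 0.054. The stretch that holds Got1 had 5 other tested genes, of which 1 was lower and none higher.

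The genes that touch Got1 most closely were silent in these cells. Cnnm1, a gene of a membrane protein family linked to magnesium transport, ends 2.5 kb from the 3' end of Got1 on the opposite strand, and it had 0 counts in all 6 libraries. Hpse2, a heparanase homolog 111.4 kb away on the same side, also had 0 counts in all 6. On the other side the homeobox gene Nkx2-3, 87.7 kb from Got1, had 1 count in GOT1-/- replicate 3 and 0 in the other libraries. Of the 10 neighbours within 0.5 Mb of Got1, 5 had 0 counts throughout, the others of these being Abcc2, a liver export pump gene, Cpn1, a carboxypeptidase gene of liver, and the cytochrome P450 gene Cyp2c23. A count of 0 allows up to 0.133 to 0.181 CPM per library, so no signal of these genes was detectable at this depth in either genotype.

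The 4 tested neighbours within 0.5 Mb all lay on the side of the Got1 5' end, and 1 of them was called. Slc25a28, left out by the rule, lay nearer to Got1 than any of these, at 139.2 kb on the same side. It was not called (log2 fold change 0.23, SE 0.11, adjusted p = 0.0945, edgeR). Entpd7, 165.1 kb away, encodes an intracellular nucleotide-hydrolysing enzyme whose loss in mice raises Th17 cells in the small intestine. Its level was 21.03, 23.18 and 17.59 CPM in the WT libraries and 16.36, 17.66 and 17.41 CPM in the GOT1-/- libraries, in replicate order. WT replicate 3 fell among the GOT1-/- libraries, so the groups overlapped, and the log2 fold change of -0.27 (SE 0.11) was just outside the threshold (adjusted p = 0.0505). Without WT replicate 3 it was -0.38 with an adjusted p = 0.00957 (edgeR), and over all alternatives its adjusted p ranged from 0.00957 to 0.571.

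Cox15, which encodes an enzyme of haem A synthesis for cytochrome c oxidase, was at 42.1, 38.6 and 40.7 CPM in WT and 41.8, 41.2 and 40.1 CPM in GOT1-/- libraries. The genotypes overlapped closely, with a log2 fold change of 0.02, whose range of 2 SE was -0.14 to 0.18 (adjusted p = 0.858, edgeR). Without WT replicate 2 its log2 fold change was -0.01. Cutc, named for copper homeostasis, was at 3.24, 2.63 and 3.45 CPM in WT and 2.90, 3.19 and 3.80 CPM in GOT1-/- libraries, and also overlapped (0.09, SE 0.20, adjusted p = 0.753). Its sign turned without GOT1-/- replicate 3 (-0.02) or WT replicate 2 (-0.03) and after correction for gene length (-0.11) or length and GC content (-0.09). Cox15 shares 444 exonic bases with Entpd7 on the opposite strand, and the labels do not say that strand was used in counting, so reads there may be divided between them.

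Dnmbp, a scaffold gene that links dynamin to activation of the GTPase Cdc42, was the called gene nearest to Got1, at 322.2 kb. It was at 15.8, 13.6 and 13.7 CPM in WT and 13.2, 10.5 and 11.0 CPM in GOT1-/- libraries, with the groups close but not overlapping. The log2 fold change was -0.31 (SE 0.12, adjusted p = 0.041, edgeR). The call was lost when any of these was left out: GOT1-/- replicate 2 (adjusted p = 0.168) or 3 (0.0847), WT replicate 1 (0.15) or 2 (0.0522). It was also lost after the length correction (-0.16, adjusted p = 0.288), with DESeq2 (0.0536) and with upper-quartile scaling (0.0661), with a range of 0.0108 to 0.288 over all alternatives.

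Farther out on the same side, Erlin1 and Chuk were nearly level between genotypes. Erlin1, whose product helps to degrade inositol trisphosphate receptors in the endoplasmic reticulum, was at 16.6, 15.95 and 19.3 CPM in WT and 16.9, 19.5 and 16.6 CPM in GOT1-/- libraries (log2 fold change 0.04, SE 0.11). Chuk encodes the IKK-alpha kinase of the non-canonical NF-kappaB pathway. It was at 58.3, 60.1 and 70.4 CPM in WT and 62.9, 65.7 and 60.4 CPM in GOT1-/- libraries, with a log2 fold change of 0.00 (SE 0.08, adjusted p = 0.976, edgeR) and a range of 2 SE from -0.16 to 0.17. The sign of Erlin1 turned without GOT1-/- replicate 2 (-0.05) or WT replicate 2 (-0.02), and that of Chuk turned with the library left out and with the scaling. On the Cnnm1 side the nearest tested gene was Hps1, 719.8 kb away, which encodes a subunit of a complex needed for lysosome-related organelles. Hps1 was at 42.1, 47.1 and 46.0 CPM in WT and 46.5, 45.8 and 47.7 CPM in GOT1-/- libraries, which overlapped (0.05, SE 0.08, adjusted p = 0.632, edgeR). Next to it R3hcc1l, 907.4 kb away, was at 21.5, 21.5 and 24.8 CPM in WT and 15.9, 16.2 and 18.4 CPM in GOT1-/- libraries, and was lower in every GOT1-/- library than in any WT library (-0.43, SE 0.10, adjusted p = 0.00253, edgeR).

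**Figure D2:**
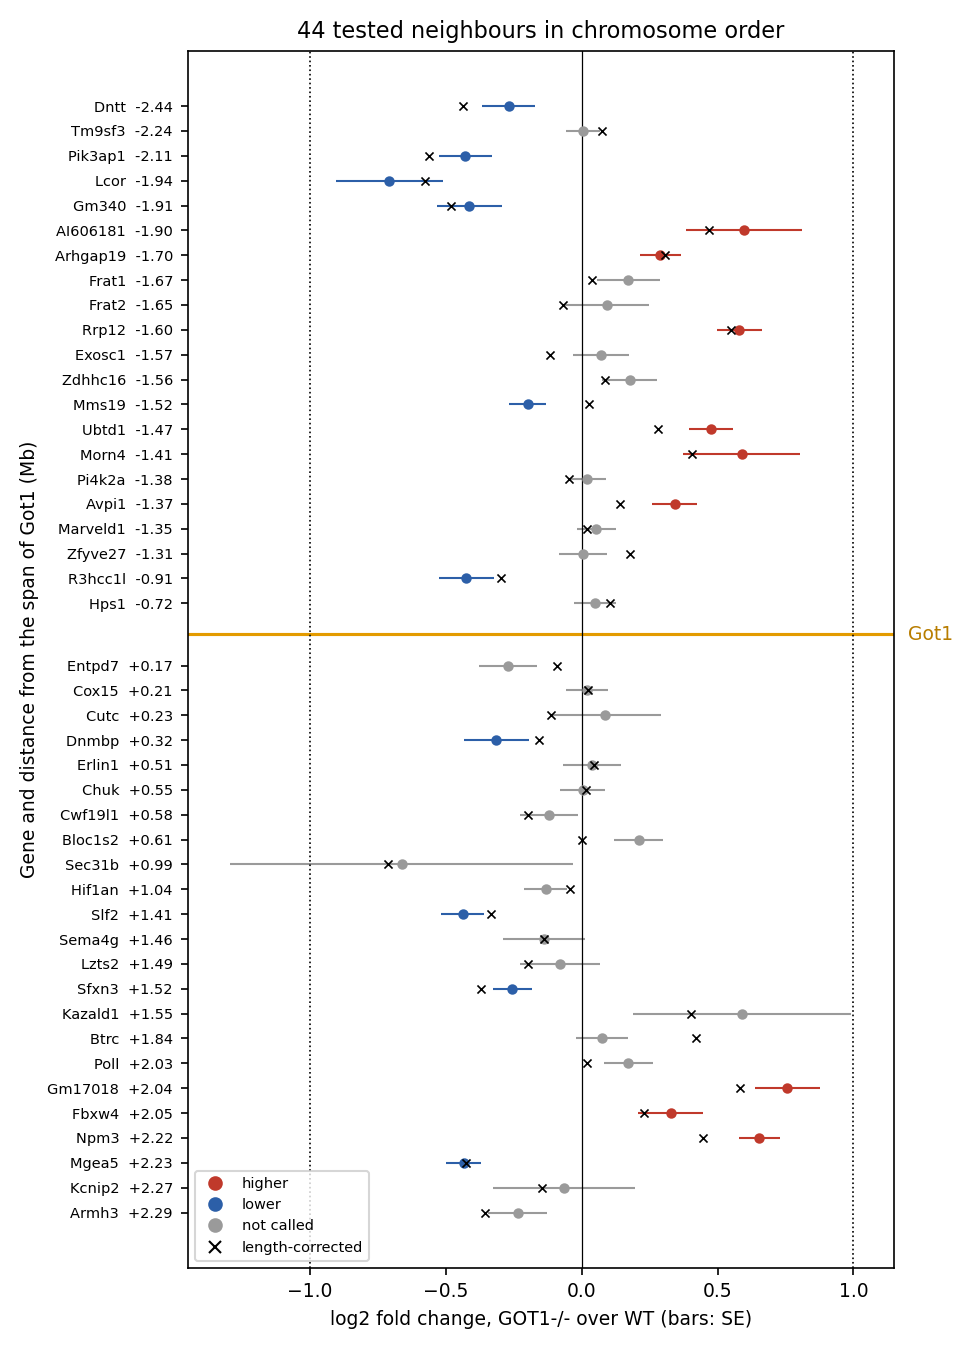
Log2 fold change (GOT1-/- over WT) with its SE for the 44 tested neighbours in chromosome order, with the distance from the span of Got1 in Mb beside each name (negative on the Cnnm1 side). Crosses give the value after the length correction; the 11 genes nearest to Got1, from R3hcc1l to Sec31b, hold 2 of the 19 calls.

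Calls were counted by distance from Got1, beside 43.8% called over all genes and 49.9% in the rest of chromosome 19. Within 1 Mb, 2 of 11 tested neighbours were called, both lower, and beyond 1 Mb 17 of 33 were called, 9 higher and 8 lower. By distance, 1 of 4 was called up to 0.5 Mb, 1 of 7 from 0.5 to 1 Mb, 4 of 10 from 1 to 1.5 Mb and 13 of 23 beyond. Spearman's rank correlation between distance and the size of the log2 fold change was 0.30 across the 44 genes, which share a chromosome and the same libraries. The genes within 1 Mb had a lower median level (18.9 CPM) and a longer median length (4961 bases) than those beyond (25.5 CPM and 3158 bases), and neither the difference in calls nor the part of level and length in it was tested. On the Cnnm1 side 12 of 21 tested neighbours were called, 6 each way, and on the other side 7 of 23, 3 higher and 4 lower.

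**Figure D3:**
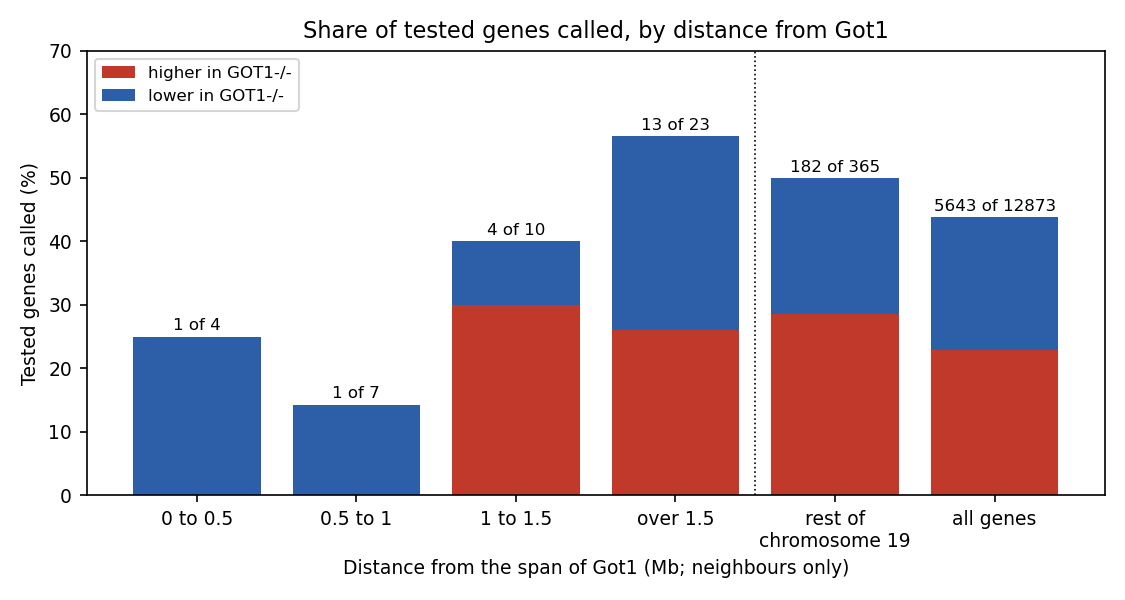
Share of tested genes called higher (red) or lower (blue) in GOT1-/- cells, in percent, for the neighbours by distance from the span of Got1 and for the rest of chromosome 19 and all genes. The counts above the bars are 1 of 4 nearest to Got1, then 1 of 7, 4 of 10, and 13 of 23 beyond 1.5 Mb. In the rest of the chromosome 182 of 365 were called.

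The calls that held in all 16 alternative fits were 4 higher and 6 lower. How many of all genes held their call in all 16 was not counted, so there is no background for this number. The higher ones were Gm17018, Npm3, Rrp12 and Arhgap19, and the lower ones were Pik3ap1, Gm340, R3hcc1l, Slf2, Sfxn3 and Mgea5. All but R3hcc1l lay more than 1 Mb from Got1.

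The neighbours with smallest adjusted p were nucleolar genes that rose. Of 6 neighbours listed under RNA processing and ribosome assembly, 2 were higher, 2 lower and 2 not called, beside 22.9% higher and 21.0% lower over all genes. Npm3, a histone chaperone gene of the nucleophosmin family, was at 59.7, 59.5 and 54.4 CPM in WT and 86.3, 93.8 and 93.0 CPM in GOT1-/- libraries. Every GOT1-/- library was well above every WT library, and Npm3 rose by 0.65 on the log2 scale (SE 0.08, adjusted p = 3.95e-06, edgeR). Rrp12, needed for the maturation and export of ribosomal subunits, was at 46.3, 38.6 and 45.8 CPM in WT and 64.0, 64.8 and 66.4 CPM in GOT1-/- libraries. The GOT1-/- libraries were again all higher, and Rrp12 rose by 0.58 (SE 0.08, adjusted p = 3.56e-05, edgeR). The members of this list that fell were R3hcc1l and Mgea5. Mgea5 encodes O-GlcNAcase, which takes O-linked N-acetylglucosamine off proteins and is not a ribosome assembly factor. It was at 240.0, 252.6 and 250.1 CPM in WT and 186.7, 176.7 and 186.4 CPM in GOT1-/- libraries, with no overlap, and fell by 0.43 (SE 0.07, adjusted p = 4.97e-05, edgeR). Exosc1, of the RNA-degrading exosome, and Cwf19l1 were not called, at 0.07 (SE 0.10) and -0.12 (SE 0.11) on the log2 scale.

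Of the 4 neighbours listed under DNA repair and nucleotide addition, 3 fell and 1 was not called, beside 21.0% lower over all genes. Of the 3, the call of Slf2 held in all 16 alternative fits, and those of Mms19 and Dntt did not. Slf2, which recruits the SMC5-SMC6 complex to DNA damage, was at 42.4, 39.98 and 41.5 CPM in WT and 31.2, 30.5 and 29.7 CPM in GOT1-/- libraries. The groups were clearly apart, and Slf2 fell by 0.44 (SE 0.08, adjusted p = 0.000294, edgeR). Mms19, which delivers iron-sulfur clusters to DNA repair enzymes, was at 121.6, 127.4 and 123.5 CPM in WT and 109.0, 110.2 and 105.3 CPM in GOT1-/- libraries. Mms19 fell by 0.20 (SE 0.07, adjusted p = 0.023, edgeR), but at 10415 bases it is a long gene, and after the length correction its value was 0.03 (adjusted p = 0.764). The Mms19 call was also lost without GOT1-/- replicate 2 (adjusted p = 0.0578) or WT replicate 2 (0.0998), with no filter (0.0569) and with upper-quartile scaling (0.0538), with a range of 0.0122 to 0.983 over all alternatives.

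Dntt encodes terminal deoxynucleotidyl transferase, which adds bases to antigen receptor junctions in developing lymphocytes. It was at 140.1, 164.6 and 153.5 CPM in WT and 129.4, 106.2 and 145.4 CPM in GOT1-/- libraries, and GOT1-/- replicate 3 lay within the WT range. Dntt fell by 0.27 (SE 0.10, adjusted p = 0.0311, edgeR), a call that was lost when GOT1-/- replicate 2 was left out (-0.16, adjusted p = 0.204), as well as without replicate 2 (0.152) or 3 (0.0713) of WT and with upper-quartile scaling (0.0593), with a range of 0.000341 to 0.204 over all alternatives. Per kilobase it had the highest level of the tested neighbours, 65.7 CPM per kilobase of deposited length, followed by Avpi1 (63.6) and Npm3 (62.7). Poll, the gene of DNA polymerase lambda, was at 24.2, 25.7 and 22.1 CPM in WT and 25.9, 27.6 and 27.7 CPM in GOT1-/- libraries. The GOT1-/- libraries were slightly higher without overlap, but it was not called (0.17, SE 0.09, adjusted p = 0.132, edgeR).

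Of 11 tested neighbours in the list of signalling and ubiquitin genes, 4 rose, 1 fell and 6 were not called, beside 22.9% higher and 21.0% lower over all genes. Of the 4 that rose (Ubtd1, Avpi1, Arhgap19 and Fbxw4), all but Arhgap19 lost their call when length and GC content were both corrected for. Ubtd1, a ubiquitin-domain gene, was at 40.1, 37.3 and 38.4 CPM in WT and 56.6, 54.8 and 49.3 CPM in GOT1-/- libraries, all higher, and rose by 0.47 (SE 0.08, adjusted p = 0.000175, edgeR). When length and GC content were both corrected for, Ubtd1 was not called (0.14, adjusted p = 0.15, edgeR), and its adjusted p ran from 1.86e-06 to 0.15 over the alternatives. Avpi1, named as a vasopressin-induced gene, was at 73.3, 72.1 and 62.7 CPM in WT and 94.8, 88.8 and 80.3 CPM in GOT1-/- libraries, again all higher (0.34, SE 0.08, adjusted p = 0.00318, edgeR). This short gene, of 1236 bases, lost its call with the trend over length removed (0.14, adjusted p = 0.183, edgeR) or the trends over both (0.06, 0.543), and the adjusted p over the alternatives ran from 0.000142 to 0.543. Arhgap19, which encodes a GTPase-activating protein, was at 48.9, 50.6 and 49.9 CPM in WT and 63.5, 61.2 and 57.6 CPM in GOT1-/- libraries. It was higher in each GOT1-/- library (0.29, SE 0.08, adjusted p = 0.00494, edgeR).

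Pik3ap1, the adaptor BCAP that couples receptors to phosphoinositide 3-kinase, was the signalling gene that fell. It was at 80.1, 79.3 and 73.8 CPM in WT and 68.6, 55.0 and 49.7 CPM in GOT1-/- libraries, spread but all below WT, and fell by 0.43 (SE 0.10, adjusted p = 0.00201, edgeR). Fbxw4, an F-box gene, was at 14.6, 16.2 and 12.4 CPM in WT and 20.3, 18.3 and 15.7 CPM in GOT1-/- libraries, with WT replicate 2 above GOT1-/- replicate 3 (0.33, SE 0.12, adjusted p = 0.0348, edgeR). That call was lost when any of these was left out: GOT1-/- replicate 1 (adjusted p = 0.142) or 2 (0.102), WT replicate 1 (0.0773) or 3 (0.167). It was also lost after the length correction (0.138) and with DESeq2 (0.052), with a range of 0.00581 to 0.467 over all alternatives. Among members that were not called, Hif1an, the asparaginyl hydroxylase that restrains HIF-1, was at 48.9, 50.2 and 44.4 CPM in WT and 43.4, 42.4 and 45.3 CPM in GOT1-/- libraries (-0.13, SE 0.08, adjusted p = 0.19, edgeR). Btrc encodes the beta-TrCP subunit that marks IkappaB and beta-catenin for degradation. It was at 21.2, 22.5 and 24.4 CPM in WT and 25.9, 22.2 and 23.5 CPM in GOT1-/- libraries, which overlapped (0.07, SE 0.10, adjusted p = 0.553, edgeR). Btrc is the longest tested neighbour, at 16908 bases, and it was called higher once the length trend was removed (0.42, adjusted p = 0.00135, edgeR). With both trends removed it was at 0.50 (0.000154), the low end of a range reaching 0.937 among the alternatives.

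Of the 5 transcription and chromatin genes, 1 was tested. Lcor, a ligand-dependent nuclear receptor corepressor, was at 9.40, 9.90 and 12.3 CPM in WT and 8.69, 6.39 and 3.97 CPM in GOT1-/- libraries. The GOT1-/- libraries were all lower but widely spread, and Lcor fell by 0.71 (SE 0.20, adjusted p = 0.00755, edgeR), a call that was lost without WT replicate 3 (-0.60, adjusted p = 0.0522; range over all alternatives 7.22e-06 to 0.0522). The homeobox genes Tlx1 and Lbx1 had 0 counts in every library, and Nkx2-3 and the paired-box gene Pax2 had 1 and 2 counts in all.

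Few neighbours were in the list of mitochondrial genes. This list does not hold the genes left out by the rule, among them Ndufb8 and Mrpl43, called higher, and Twnk and Slc25a28, not called. Of 3 tested in the list, Sfxn3 fell and Cox15 and Cutc were not called, beside 22.9% higher and 21.0% lower over all genes. Sfxn3, of the sideroflexin family of mitochondrial serine carriers, was at 89.1, 87.5 and 84.3 CPM in WT and 76.5, 71.5 and 70.4 CPM in GOT1-/- libraries, with no overlap (-0.26, SE 0.07, adjusted p = 0.0079, edgeR). Of 11 tested genes of membrane traffic and cytoskeleton, 1 rose, 1 fell and 9 were not called, beside the same shares over all genes. The one that fell was Dnmbp. Morn4 rose from 1.97, 1.92 and 2.48 CPM in WT to 3.38, 2.84 and 3.33 CPM in GOT1-/- libraries (0.59, SE 0.21, adjusted p = 0.034, edgeR). The Morn4 call was lost when any of these was left out: GOT1-/- replicate 1 (adjusted p = 0.0931) or 3 (0.08), WT replicate 1 (0.105) or 2 (0.11). It was also lost after the length correction (0.145), and with DESeq2 (0.0712; range over all alternatives 0.0258 to 0.162). Of the others, the phosphatidylinositol kinase gene Pi4k2a had means of 72.9 ± 2.55 (WT) and 73.9 ± 1.87 CPM (GOT1-/-; SD, n = 3). Marveld1 was at 86.0 ± 4.64 and 89.3 ± 2.02 CPM, and Zfyve27, which encodes the endosome transport protein protrudin, at 26.0 ± 0.534 and 26.0 ± 2.04 CPM. The most abundant tested neighbour in CPM, Tm9sf3, was at 340.5, 340.2 and 359.9 CPM in WT and 346.6, 348.0 and 349.4 CPM in GOT1-/- libraries. It was not called in the main fit, but was called higher after the length and GC correction (0.20, adjusted p = 0.0059, edgeR).

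**Figure D4:**
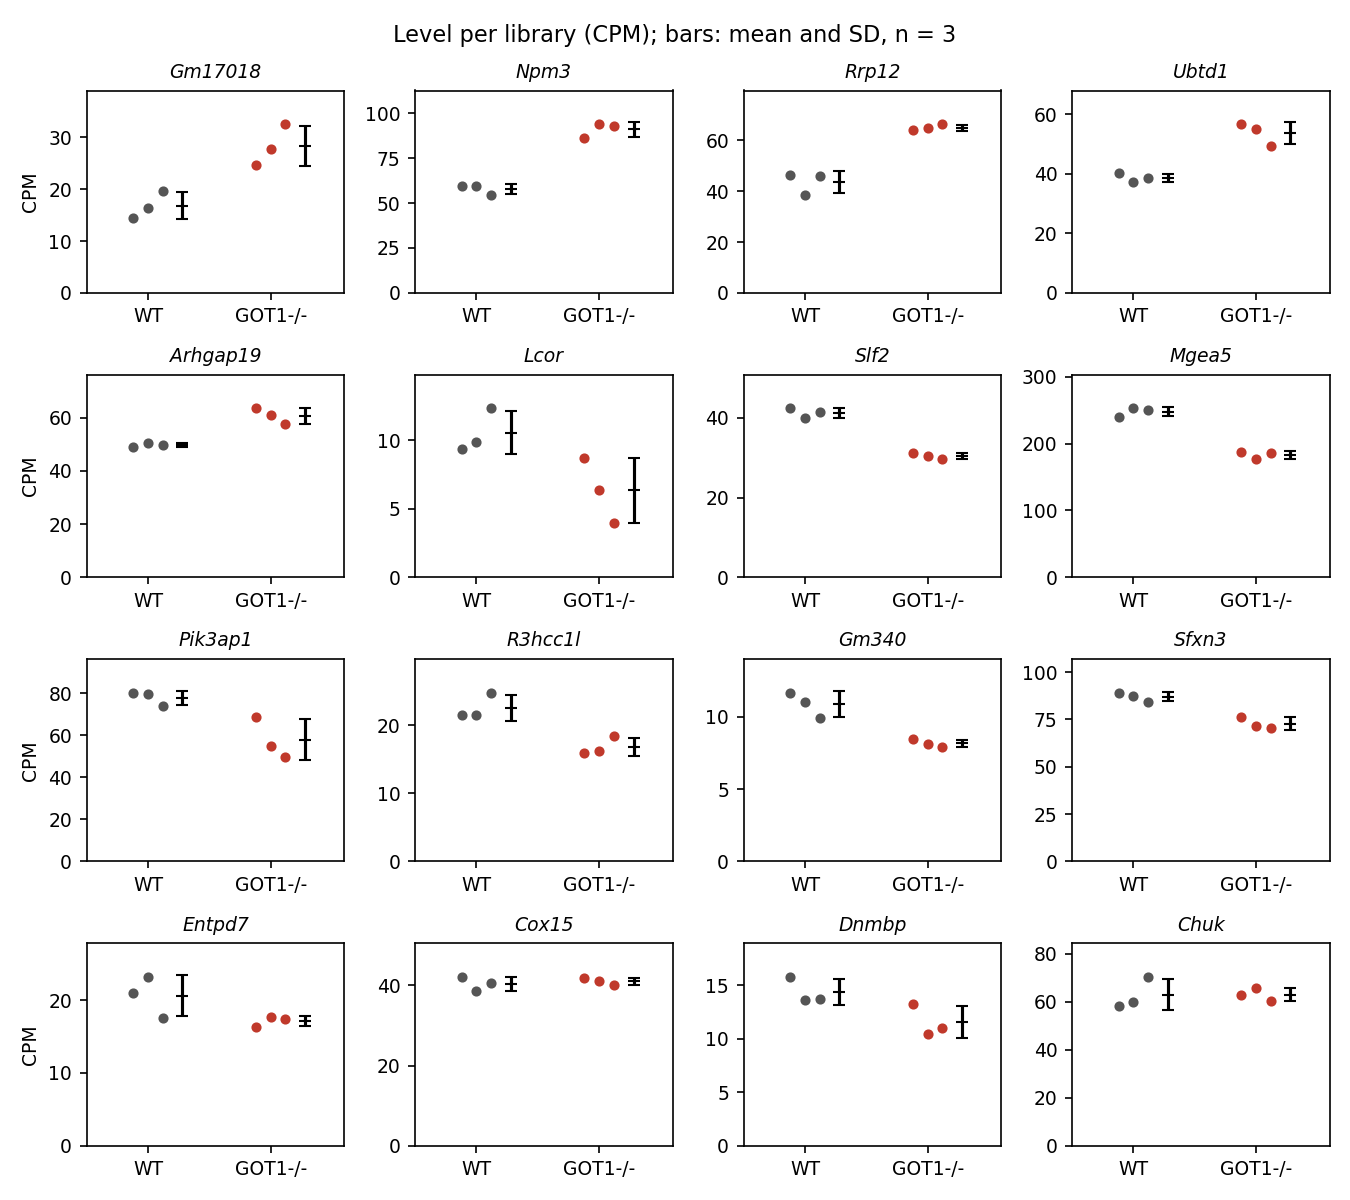
CPM in each of the 3 WT (grey) and 3 GOT1-/- (red) libraries for 16 neighbours, with the mean and SD (n = 3) beside them; each axis starts at 0. The 16 genes are a selection: the 12 of the upper 3 rows were all called and do not overlap between genotypes, whereas Entpd7, Cox15 and Chuk in the bottom row do. Genotypes did not overlap for 45.5% of the tested neighbours and 53.4% of all genes.

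None of the tested metabolic enzymes and carriers (Entpd7 and Erlin1) or secreted, neural and developmental genes (Sema4g, Kazald1 and Kcnip2) was called. Sema4g, a semaphorin gene, had means of 5.68 ± 0.401 (WT) and 5.16 ± 0.325 CPM (GOT1-/-; SD, n = 3), a log2 fold change of -0.14 (SE 0.15). In these 2 lists 19 further neighbours had too few reads to be tested. Across all roles, 27 of the 71 neighbours were not tested: 12 had 0 counts in every library, 8 had 1 to 3 counts over the 6 libraries and 7 had more. Among those 7, the secreted enzyme gene Loxl4 had 6, 8 and 3 counts in WT and 2, 2 and 2 in GOT1-/- libraries, and Crtac1 had 0, 1 and 0 counts in WT and 3, 4 and 2 in GOT1-/- libraries. These were chosen after their values were seen, and without a filter neither was called (adjusted p = 0.282 and 0.215, edgeR). The stearoyl-CoA desaturase gene Scd4 had 6, 8 and 1 counts in WT and 2, 7 and 1 in GOT1-/- libraries, and Scd3 1, 0 and 1 in WT and 1, 0 and 0 in GOT1-/- libraries.

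The 3 tested genes outside the role lists were called, 2 higher and 1 lower, beside 43.8% called over all genes, and AI606181 lost its call in 4 alternatives. Gm17018 had the largest change of all, at 14.5, 16.4 and 19.6 CPM in WT and 24.8, 27.8 and 32.5 CPM in GOT1-/- libraries. All GOT1-/- libraries were higher, and it rose by 0.76 (SE 0.12, adjusted p = 8.47e-05, edgeR). It shares 676 exonic bases, 28.8% of its exons, with Fbxw4 on the opposite strand, so reads may be divided between them. Gm340 fell by 0.41 (SE 0.12, adjusted p = 0.01, edgeR), from 11.7, 11.0 and 9.91 CPM in WT to 8.45, 8.12 and 7.95 CPM in GOT1-/- libraries, with no overlap. AI606181 was at 2.73, 2.96 and 4.35 CPM in WT and 4.2, 4.53 and 6.43 CPM in GOT1-/- libraries, with WT replicate 3 above GOT1-/- replicate 1. Its increase of 0.60 (SE 0.21, adjusted p = 0.0322, edgeR) lost its call when GOT1-/- replicate 3 was left out (adjusted p = 0.147, edgeR), or WT replicate 1 (0.134) or WT replicate 2 (0.113), or after the length correction (0.082), with a range of 0.00666 to 0.147 over all alternatives.

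Neighbours that start back to back within 1000 bases of each other may share a promoter. The neighbours held 4 such pairs with both genes tested. Pairs made only of genes left out by the rule, as Mrpl43 (higher) and Twnk (not called) are, were not counted. None of the 4 had both genes called in one direction, whereas this was so for 113 of 875 genome pairs, or 12.9%. In 1 pair the genes were called in opposite directions (4.00% of pairs in the genome), in 1 pair one gene was called, and in 2 neither was. Mms19 and Ubtd1, whose starts lie 606 bases apart, were the opposite pair, at -0.20 and 0.47 on the log2 scale, and neither gene kept its call after the length and GC correction. Poll and Gm17018 start 84 bases apart, at 0.17 and 0.76. Cox15 and Cutc, the pair nearest to Got1, overlap at their starts and were at 0.02 and 0.09. Exosc1 and Zdhhc16, a palmitoyltransferase gene, start 166 bases apart and were at 0.07 and 0.18. Zdhhc16 shares 959 exonic bases, 28.7% of its exons, with Mms19 on the opposite strand, so reads may be divided between them. A further pair joined Sfxn3 to Pdzd7, which was not tested.

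The promoter sequences of the pair nearest to Got1 and of the pair with opposite calls are shown as the sequence in which the motifs below were counted. They are from RefSeq on GRCm38.p6, from 250 bases before to 50 after each start and read 5' to 3' on the strand of the gene, with matches to the motifs below in capitals. Cox15 lies at chr19:43752951-43753250 on the minus strand, Cutc at chr19:43752773-43753072 on the plus strand, Mms19 at chr19:41981087-41981386 on the minus strand and Ubtd1 at chr19:41981513-41981812 on the plus strand.
Cox15: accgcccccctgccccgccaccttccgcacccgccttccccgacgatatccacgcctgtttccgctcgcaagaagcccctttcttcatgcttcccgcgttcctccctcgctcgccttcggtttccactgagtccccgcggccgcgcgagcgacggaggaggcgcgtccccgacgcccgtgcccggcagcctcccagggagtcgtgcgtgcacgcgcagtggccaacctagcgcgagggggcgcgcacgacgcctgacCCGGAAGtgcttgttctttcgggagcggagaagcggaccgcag
Cutc: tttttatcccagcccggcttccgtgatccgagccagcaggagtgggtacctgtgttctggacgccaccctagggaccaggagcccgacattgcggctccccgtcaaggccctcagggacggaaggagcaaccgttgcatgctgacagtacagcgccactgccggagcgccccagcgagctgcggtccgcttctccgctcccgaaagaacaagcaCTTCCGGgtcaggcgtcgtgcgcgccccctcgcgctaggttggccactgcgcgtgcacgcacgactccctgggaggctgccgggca
Mms19: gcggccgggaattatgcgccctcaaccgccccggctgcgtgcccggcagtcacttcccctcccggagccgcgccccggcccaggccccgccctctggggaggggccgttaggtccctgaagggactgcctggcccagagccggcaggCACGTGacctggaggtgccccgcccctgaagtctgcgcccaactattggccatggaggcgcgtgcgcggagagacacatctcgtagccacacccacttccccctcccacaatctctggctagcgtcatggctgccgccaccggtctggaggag
Ubtd1: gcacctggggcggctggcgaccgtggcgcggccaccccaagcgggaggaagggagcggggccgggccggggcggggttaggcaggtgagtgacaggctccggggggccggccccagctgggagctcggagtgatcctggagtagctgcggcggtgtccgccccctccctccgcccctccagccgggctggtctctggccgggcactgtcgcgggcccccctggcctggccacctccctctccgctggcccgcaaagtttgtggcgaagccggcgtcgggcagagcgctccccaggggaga

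Matches to 4 motifs were counted. Promoters were found for 35 of the 44 tested neighbours and searched on both strands for an E-box (CACGTG), an ETS motif (CCGGAAG), a palindromic NRF1 motif and a composite C/EBP-ATF motif (TGATGNAAT), none of which overlaps another. The ETS motif was in 9 of the 35, or 25.7%, among them the shared stretch of Cox15 and Cutc, beside 17.9% of promoters of all tested genes and 8.86% of all promoters. It was in none of the 5 matched genes that rose and none of the 7 that fell. The other called genes (Gm340, AI606181, Rrp12, Slf2, Gm17018, Fbxw4 and Mgea5) had no matched promoter. Nor had Btrc and Poll, which were not called. The E-box was in 3 of the 35, or 8.57%, beside 10.0% of promoters of tested genes and 7.15% of all promoters, and 2 of the 3, Mms19 and Pik3ap1, fell. The NRF1 motif (2.09% of promoters of tested genes, 0.971% of all) and the C/EBP-ATF motif (0.412% and 0.965%) were in none of the 35. Each promoter was taken at the RefSeq start nearest to the deposited start. For Cwf19l1 and Zfyve27, which each hold an ETS match, that start lay 420 and 6616 bases away. The ETS match of Cox15 and Cutc is the same site, counted for both genes. Motifs were chosen after the data were seen, and a match is a description of the letters in these windows.

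Fold changes of the neighbours followed gene length. Spearman's rank correlation between deposited gene length and log2 fold change was -0.56 across the 44 tested neighbours, -0.42 across the 365 tested genes of the rest of chromosome 19 and -0.40 across 11526 tested protein-coding genes, with short genes higher and long genes lower in GOT1-/- libraries. After each library's trend over length was removed, this correlation across the neighbours was -0.14. With that correction 6 neighbours were higher and 9 lower, beside 21.0% and 19.6% of all genes, and the median log2 fold change was 0.01 for the neighbours and -0.01 for the rest of the chromosome. Of the 19 calls 13 were kept in the same direction, and Btrc (higher) and Armh3 (lower, -0.36, adjusted p = 0.0106, edgeR) were gained. After correction for length and GC content 6 were higher and 10 lower, and the medians were -0.08 and -0.04. Among the 43 neighbours with a value 12 calls were kept. The 4 calls gained were Btrc and Tm9sf3 (higher), Armh3 (lower) and Lzts2 (lower, -0.35, adjusted p = 0.0393, edgeR). In that setting 21.5% of all genes were higher and 20.2% lower.

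**Figure D5:**
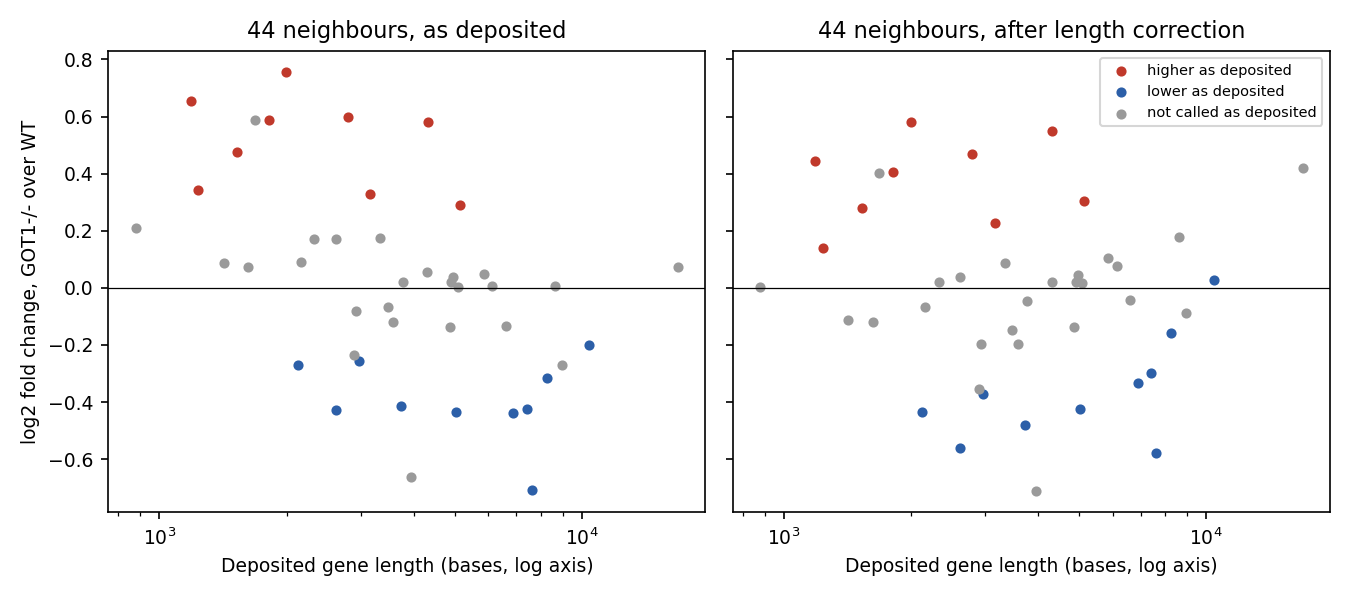
Log2 fold change (GOT1-/- over WT) of the 44 tested neighbours against deposited gene length in bases on a log axis, before (left) and after (right) each library's length trend was removed; colours give the calls made before it. The downward slope on the left, with Spearman's rank correlation of -0.56, is -0.14 on the right.

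The genes at the borders of the window were as follows. Just inside the Dntt border, Dntt was at -0.27 and Tm9sf3 at 0.00 on the log2 scale, and just outside, the zinc finger gene Zfp518a fell from 37.2, 41.1 and 39.3 CPM in WT to 22.4, 18.01 and 16.7 CPM in GOT1-/- libraries (-1.04, SE 0.10, adjusted p = 9.33e-07, edgeR). The next gene, Ccnj, was not called (-0.18). At the other border Kcnip2 (-0.07) and Armh3 (-0.24) were not called, and outside it Hps6 rose by 0.35 and Ldb1 was at 0.06 and not called. Of the 7 genes left out besides Got1, Pgam1 (0.31), Mrpl43 (0.22) and Ndufb8 (0.91) were higher, and Scd1 (0.12), Scd2 (0.06), Twnk (-0.06) and Slc25a28 (0.23) were not called.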

How the data were processed

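For 54532 genes, the values the authors deposited are raw counts, whole numbers without scaling. Per the submitters' processing notes, STAR and GRCm38 were used; the counting program, strand and versions were not given in the sources used here. Coordinates and gene lengths are those deposited; lengths are not genomic spans. Of the gene IDs, 54409 were in GENCODE M21, and 98.3% of these had the same position and strand. Symbols turned into dates were restored for 27 genes. Low genes were removed with filterByExpr (count 10, total 15) and the rest tested with edgeR 4.0.16 in R 4.3.3 (trimmed mean of M-values scaling, genotype as the only term, quasi-likelihood F-test, two-sided, Benjamini-Hochberg adjustment over all 12873 genes tested). CPM uses the scaled library sizes. Replicates were distinct libraries, since chi-square over its degrees of freedom was 3.76 to 13.7 between them. Total counts per library, 16463752 to 22541410, set the precision of low genes. Same-numbered libraries did not deviate together (correlations 0.06, -0.03 and 0.03), and the main fit did not pair them by number. Whether they shared an animal, culture or preparation cannot be told from these correlations.

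The neighbours, the role lists and the tests were chosen with earlier results of these data known. Named genes were the 6 tested neighbours nearest to Got1 on each side, the 8 largest called changes each way at a mean of at least 2 CPM, up to 4 called genes per role list, 10 genes listed by name and all back-to-back pairs; of those 10, Nfkb2, Ldb1, Trim8 and Sufu start outside the window and are not described as neighbours. Other genes named were chosen after their values were seen. Simulated data for GOT1-/- against WT held 12713 genes, of which 12518 were unchanged. There edgeR called 46.9% of 49 genes changed 1.3-fold, 76% of 50 changed 1.5-fold, 95.7% of 47 changed 2-fold, and 12 unchanged genes. These shares are for data in which few genes changed, and recovery with 43.8% of genes called, as in the deposited data, was not tested. Alternatives were DESeq2 1.42.0, limma-voom (limma 3.58.1), other scalings, filters and thresholds, protein-coding genes only, the replicate number as a block, each library left out, other limits of the window, and offsets that removed each library's trend over length, or over length and GC content of the longest GENCODE transcript (robust regression on natural splines, 5 degrees of freedom).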

Additional observations from a re-analysis of the deposited data

How the results depend on the processing

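Counts of neighbours called higher and lower stayed within 1.5 times their values in all fits across genes, and without each library in turn they were 6 to 8 and 7 to 10. With a threshold of 0.01, 6 were lower. Within 1 Mb of Got1 none was higher and 2 were lower, and the median there was 0.00. On the Cnnm1 side 6 were lower, and on the other 3 were higher and 4 lower (both splits chosen after the data were seen). The count called within 0.5 Mb was 0 with DESeq2, upper-quartile scaling, either correction or a threshold of 0.01, and 2, Entpd7 included, with RLE scaling, protein-coding genes only, the stricter filter or the replicate block. Without each library it was 0 to 2. With the replicate block 9 neighbours were higher and 11 lower. The median of the neighbours was 0.053 with upper-quartile scaling, 0.05 with the left-out genes put back and -0.08 after the length and GC correction, and -0.02 to 0.035 without each library. That of the rest of the chromosome was 0.044 with protein-coding genes only or the stricter filter, 0.09 with upper-quartile scaling, -0.007 and -0.039 after the 2 corrections, and 0.031 to 0.066 without each library.

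Signs turned for 11 neighbours, of which Mms19 was called (-0.20) and Poll (0.17) was not; the other 9 were within 0.09 of 0. Chuk was at -0.006 with DESeq2, -0.005 with RLE scaling or the stricter filter, -0.009 with protein-coding genes only, and -0.037, -0.058 and -0.029 without GOT1-/- replicate 2, WT replicate 1 and WT replicate 2. Zfyve27 was at -0.004 with DESeq2, RLE scaling or the stricter filter, -0.008 with protein-coding genes only, and -0.067 and -0.013 without GOT1-/- replicate 2 and WT replicate 2. Cox15 was at -0.014 without WT replicate 2, and Cutc at -0.017 and -0.025 without GOT1-/- replicate 3 and WT replicate 2. Erlin1 was at -0.051 and -0.018 without GOT1-/- replicate 2 and WT replicate 2. Without WT replicate 1 Exosc1 was at -0.027 and Hps1 at -0.007, and without WT replicate 3 Pi4k2a was at -0.017. The highest values without a library were 0.08 (Chuk), 0.054 (Zfyve27), 0.039 (Cox15), 0.172 (Cutc), 0.11 (Erlin1), 0.159 (Exosc1), 0.084 (Hps1) and 0.042 (Pi4k2a). After the length correction Cutc was at -0.114, Exosc1 at -0.118, Pi4k2a at -0.045 and Mms19 at 0.027. After the length and GC correction Cutc was at -0.091, Exosc1 at -0.016, Hps1 at -0.021, Marveld1 at -0.048, Pi4k2a at -0.109 and Poll at -0.077. The cause was not tested. Over 34 named neighbours, 493 of 577 values kept direction and call, 46 lost the call, 7 gained it and 31 changed sign. Genes at a few counts are limited by depth.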

Other observations

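Dntt was abundant in both genotypes while its partners in antigen receptor assembly were not. Rag1 had 2, 0 and 0 counts in WT and 0, 0 and 1 in GOT1-/- libraries, and Rag2 had 0 counts in all 6, beside 2393 to 3508 counts of Dntt. These genes were looked at after the level of Dntt was seen. Of 33 rows in the window that are not protein-coding, 1 had enough reads to be tested: the processed pseudogene Gm6807, which overlaps Btrc on the opposite strand, was not called (log2 fold change 0.09, adjusted p = 0.785, edgeR).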
